A study of Homo sapiens with 4 samples.

Results

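The transcription factors examined here, PAX2, PAX8, LHX1, GATA3, WT1, SIX2, EYA1 and SALL1, build the kidney in the embryo. They are 8 of 19775 genes measured, and were chosen by name. On the array they are represented by 22 of the 41097 probe sets to which the platform annotation assigns exactly 1 gene symbol, and all 22 are described whatever their values. They were measured in HEK293, a line derived from human embryonic kidney cells and transformed with sheared adenoviral DNA. The LPA group (2 arrays) was given lysophosphatidic acid, a serum phospholipid with its own family of G protein-coupled receptors; the dose was 1 µM and the exposure 2 h. The untreated group (2 arrays) is titled Vc, letters that the labels do not explain, and its treatment is given as none. Per the labels' protocols, medium with serum was replaced overnight by serum-free medium before the stimulation. What the untreated cells received in place of LPA is not stated. The labels also do not say that the 2 arrays of a group came from separate cultures, and a p-value here may reflect technical spread alone.

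The kidney forms from the intermediate mesoderm. PAX2, PAX8, LHX1 and GATA3 act in the nephric duct, the epithelial tube whose ureteric bud branches into the collecting system, and PAX2, PAX8 and LHX1 act again in the first nephron epithelia. SIX2, EYA1, SALL1 and WT1 act in the metanephric mesenchyme around the bud, where SIX2 holds nephron progenitors undifferentiated in mice, and WT1 remains on in the podocytes of the adult glomerulus. The question was which of these factors HEK293 cells transcribe and whether their transcripts differed after LPA.

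Of the 8 genes, 7 had at least 1 probe set above background on all 4 arrays: PAX2, PAX8, GATA3, WT1, SIX2, EYA1 and SALL1. LHX1 did not. In bulk RNA such as this, fewer cells with a transcript and less of it per cell cannot be told apart. Background was set on each array as the 95th percentile of 178 probe sets for 147 genes of olfactory and bitter taste receptors, hair keratin-associated proteins and beta-defensins, families used in specialised cells. That threshold was 81.3 and 78.0 intensity units on the LPA arrays and 82.7 and 91.3 on the untreated arrays. Over all probe sets with 1 gene symbol, 45.5% passed the same criterion, as did 53.8% of their genes and 2 of the 147 panel genes. Among the 22 probe sets, 13 were bright enough to be tested for a difference between LPA and untreated cells. Of these, 0 passed the threshold for a difference (an adjusted p under 0.05 with limma), against 0.0% of all 24658 probe sets tested in each direction.

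**Figure D1:**
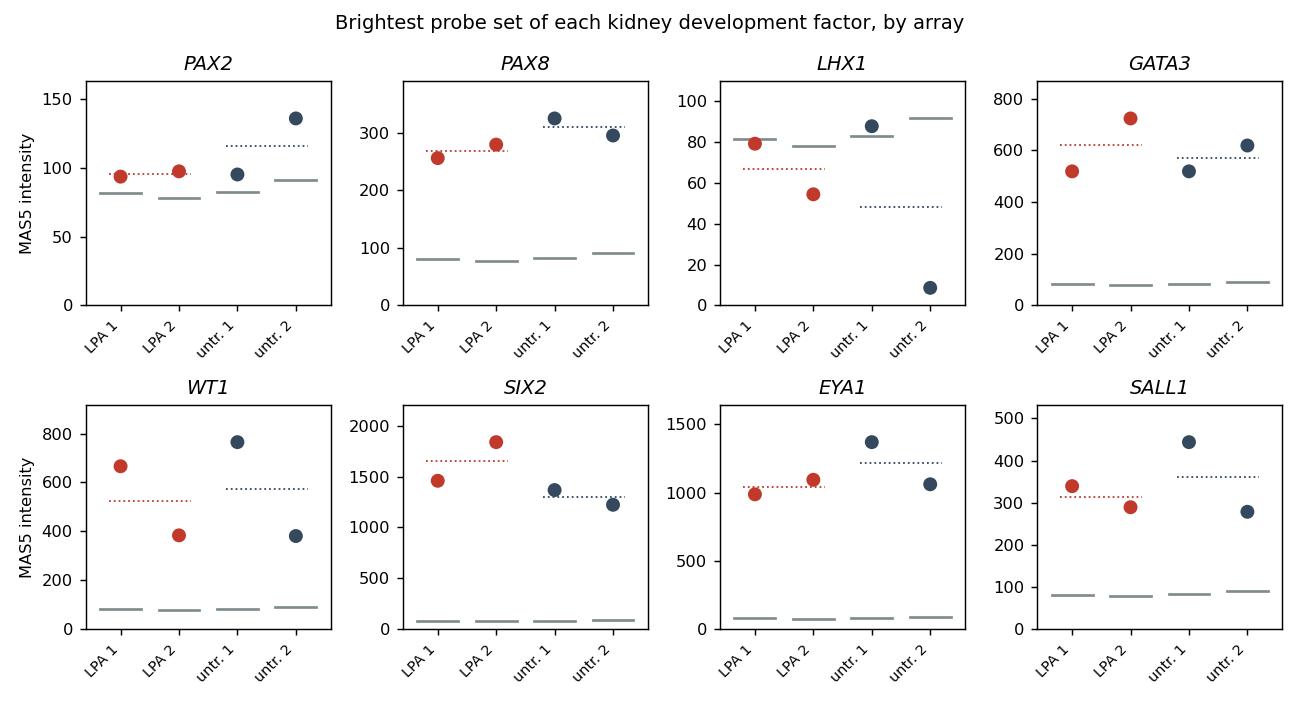
MAS5 intensity (vertical axis, linear, starting at 0, a scale of its own for each gene) of the brightest probe set of each factor on the 2 LPA arrays (red) and the 2 untreated arrays (dark blue). Dotted lines are group means and grey bars the background threshold of each array; LHX1 lies below its bar on 3 of 4 arrays and PAX2 just above it on all 4, and the remaining genes lie well above.

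SIX2, the homeodomain factor of nephron progenitors, read 1458 and 1838 on the LPA arrays, against 1367 and 1222 on the untreated arrays, at its brightest probe set (206510_at). The LPA arrays were both higher than the untreated arrays, and every array was at least 13.4 times its background threshold. The group means were 1648 ± 269 after LPA and 1295 ± 102 without it (SD, n = 2 each). The log2 difference was 0.34 ± 0.20 (SE), a fold of 1.27 with a 95% interval from 0.931 to 1.72. This was the smallest unadjusted limma p among the tested probe sets of the 8 genes, 0.116, and the adjusted p was 0.999986. The second SIX2 probe set (206511_s_at) read 185 and 107 on the LPA arrays, against 115 and 84.2 on the untreated arrays. There the groups overlapped and the lower untreated value was 0.922 times its background threshold. Its log2 difference was 0.51 ± 0.44 (SE), in the same direction as the first.

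EYA1, a phosphatase and coactivator that binds SIX2 and its relatives, read 987 and 1093 after LPA, against 1369 and 1060.4 in untreated cells, at its brightest probe set (214608_s_at). The groups overlapped, since LPA replicate 2 exceeded untreated replicate 2. The log2 difference was -0.21 ± 0.21 (SE), a fold of 0.862 with a 95% interval from 0.624 to 1.19. The other EYA1 probe set (1569736_at) lay under background on every array, with 15.9 and 49.6 after LPA and 41.8 and 67.7 in untreated cells.

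SALL1, a zinc finger repressor needed in mice for the ureteric bud to enter the mesenchyme, was the only one of the 8 genes with more than 1 probe set above background on all 4 arrays. The first (229273_at) read 339 and 289 after LPA, against 444 and 279 in untreated cells. There the gap between the untreated arrays, 0.67 on the log2 scale, exceeded the difference between the groups, -0.17 ± 0.30 (SE). The second (206893_at) was the most even of the 22 over the 4 arrays: 300.4 and 309.6 after LPA, against 322 and 310.2 in untreated cells. Both its LPA values lay below both untreated values, yet the log2 difference was only -0.05 ± 0.26 (SE).

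WT1, the zinc finger protein named for Wilms tumour, read 666 and 384 on LPA replicates 1 and 2, against 765 and 381 on untreated replicates 1 and 2 (206067_s_at). The groups overlapped completely, and in both of them replicate 1 was the higher. The gap between arrays of a group was 0.79 on the log2 scale after LPA and 1.00 in untreated cells, while the groups differed by -0.09 ± 0.37 (SE), a fold of 0.937 with a 95% interval from 0.52 to 1.69. The second WT1 probe set (216953_s_at) read 9.94 and 14.4 after LPA, against 4.60 and 4.12 in untreated cells. Its groups did not overlap, but its highest value was 0.184 times the background threshold, so it gave no measure of WT1 RNA and was not tested.

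PAX8, a paired box factor that acts with PAX2 in the nephric lineage and is also a thyroid factor, had 8 probe sets, and 1 of them was above background. That one (121_at) read 256 and 279 after LPA, against 325 and 295 in untreated cells. Both LPA values were below both untreated values, with means of 268 ± 16.6 and 310.0 ± 21.0 (SD, n = 2 each). The log2 difference was -0.21 ± 0.27 (SE), a fold of 0.864 with a 95% interval from 0.567 to 1.32. Among the other 7 probe sets, which report on parts of the transcripts that the files do not specify, a single value exceeded its threshold, 103 on untreated replicate 2 for 207924_x_at. That probe set read 15.4 and 2.95 on the LPA arrays, against 57.5 and 103 on the untreated arrays, and did not pass the filter on dim probe sets. The 7 ranged from 2.08 to 103 intensity units over all arrays. PAX8 therefore rests on 1 probe set in these data.

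PAX2, the other paired box factor, was read near its background threshold. Its brighter probe set (206228_at) read 93.6 and 97.4 after LPA, against 95.1 and 136 in untreated cells, between 1.15 and 1.49 times the threshold of each array. The groups overlapped, with a log2 difference of -0.25 ± 0.43 (SE). The second (206229_x_at) read 82.6 and 66.3 after LPA, against 77.3 and 18.7 in untreated cells, and exceeded the threshold on LPA replicate 1 alone. Its log2 difference was 0.93 ± 0.76 (SE), the opposite sign, with its lowest value on untreated replicate 2. With the 99th percentile of the silent-gene panel as the threshold, PAX2 was no longer above background and the count became 6 genes.

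LHX1, a LIM homeodomain factor of the nephric duct and the early nephron, has 1 probe set (206230_at). It read 79.0 and 54.3 after LPA, against 87.5 and 8.62 in untreated cells. Only untreated replicate 1 exceeded its threshold, at 1.06 times. The mean log2 intensity over the 4 arrays, 5.46, lay under the filter, so LHX1 was not tested. A level under background does not show that the transcript is absent.

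GATA3, a zinc finger factor of the nephric duct that also acts in T cells and in breast epithelium, read 518 and 723 after LPA, against 519 and 618 in untreated cells, at its brightest probe set (209604_s_at). The first arrays of both groups were nearly equal and the groups overlapped. The log2 difference was 0.11 ± 0.25 (SE), a fold of 1.08 with a 95% interval from 0.732 to 1.60. The other GATA3 probe sets were dim and disagreed in sign. The first (209602_s_at) read 93.1 and 77.7 after LPA, against 101 and 140 in untreated cells, with no overlap and a log2 difference of -0.48 ± 0.44 (SE). The second (209603_at) read 118 and 103 after LPA, against 60.1 and 104 in untreated cells, with a log2 difference of 0.48 ± 0.47 (SE). Each passed the background threshold on 3 of 4 arrays, and 209602_s_at missed it on LPA replicate 2, at 0.996 times.

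**Figure D2:**
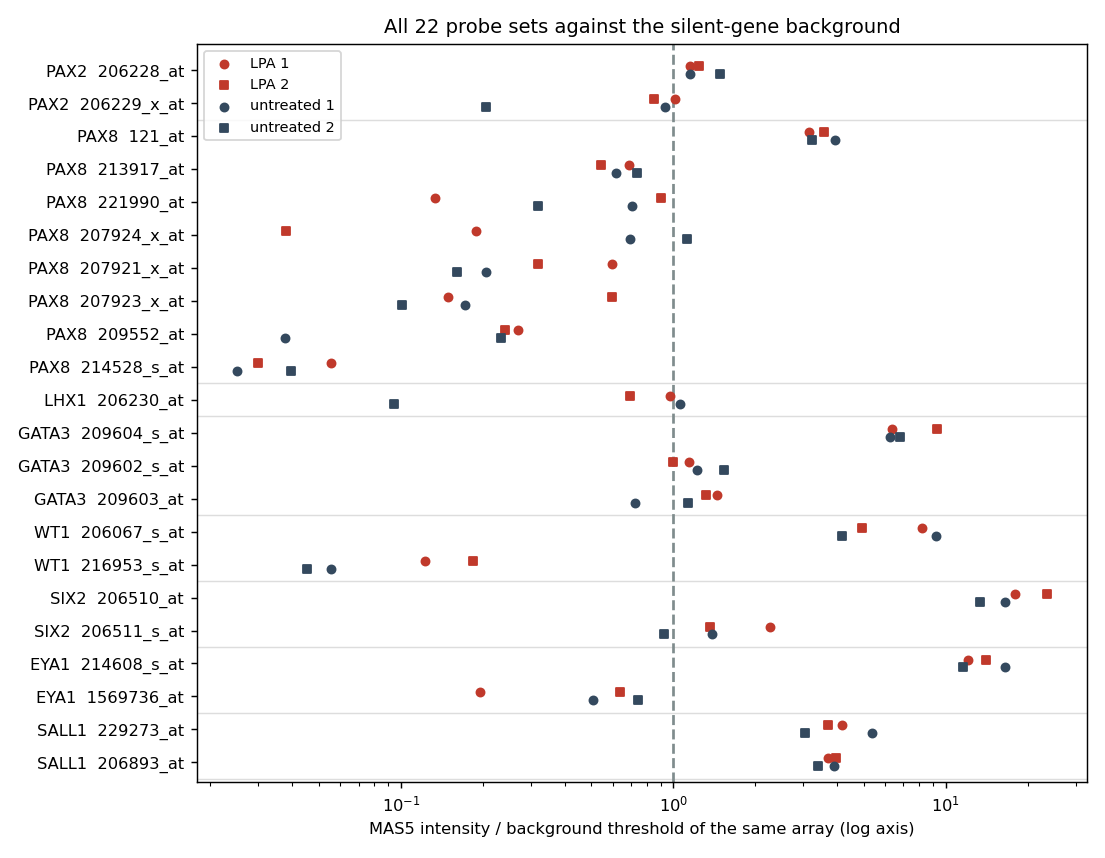
Intensity of all 22 probe sets divided by the background threshold of the same array (horizontal log axis), with LPA arrays in red and untreated arrays in dark blue, circles for replicate 1 and squares for replicate 2. The dashed line at 1 is the threshold: 8 probe sets lie right of it on all 4 arrays, and 7 of the 8 PAX8 probe sets lie mainly left of it.

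Probe sets were tested where the mean log2 intensity over all 4 arrays reached the 40th percentile, 47.1 intensity units when converted back from log2. Of the 22 probe sets, 13 passed this filter, covering 7 genes. Their log2 differences ranged from -0.48 to 0.93, with 5 above 0 and 8 below. The median was -0.09, beside 0.01 over all 24658 probe sets tested. The LPA arrays were both higher than the untreated arrays for 1 of the 13, where 15.4% of all tested probe sets did so, and both lower for 3 of the 13, where 13.5% did so. An unadjusted limma p under 0.05 was reached by 0 of the 13, beside 1.43% of all tested probe sets higher after LPA and 0.762% lower. The adjusted p was 0.999986 for each of the 13, and their 95% intervals all included 0. For 5 of the 7 genes, the brightest probe set differed more between the 2 arrays of a group than between the groups; the exceptions were SIX2 and PAX8.

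**Figure D3:**
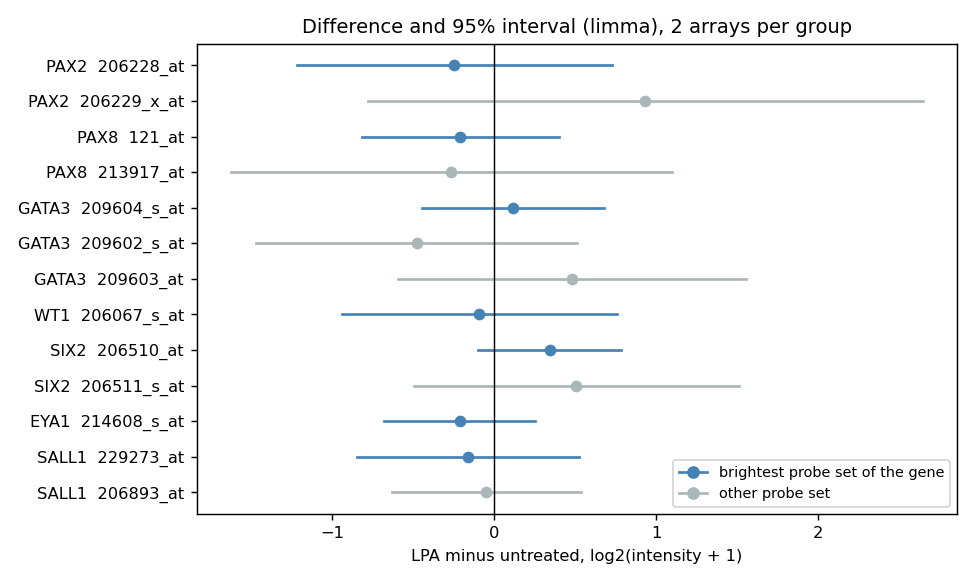
Log2 difference, LPA minus untreated (horizontal axis), of the 13 tested probe sets with limma's 95% interval (bars), 2 arrays per group; blue marks the brightest probe set of a gene and grey the others. Every interval includes 0; SIX2 (206510_at) lies farthest from 0 relative to its interval, and the probe sets of PAX2 and of GATA3 fall on both sides of 0.

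The stretches upstream of SIX2 and PAX8 are shown because these are the genes whose brightest probe sets separated the groups, upward and downward, and which have 1 start each in the RefSeq promoter table. The table held promoters for 5 of the 8 genes. Each sequence is the 250 bases before the annotated start, on build GRCh38.p14, minus strand, written 5′ to 3′ of the gene. Capitals mark the GC box that SP and KLF factors bind, GGGCGG, on either strand.
SIX2, chr2:45009453-45009702: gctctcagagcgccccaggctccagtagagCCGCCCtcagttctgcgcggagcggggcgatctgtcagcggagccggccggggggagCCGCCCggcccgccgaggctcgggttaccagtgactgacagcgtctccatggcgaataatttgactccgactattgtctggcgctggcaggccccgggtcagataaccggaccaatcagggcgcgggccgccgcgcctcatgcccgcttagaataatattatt
PAX8, chr2:113278922-113279171: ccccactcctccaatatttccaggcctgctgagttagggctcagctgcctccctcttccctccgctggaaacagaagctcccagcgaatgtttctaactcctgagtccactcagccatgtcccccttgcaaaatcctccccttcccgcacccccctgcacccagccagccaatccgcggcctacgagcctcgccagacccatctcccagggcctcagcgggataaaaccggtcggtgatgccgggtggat

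The SIX2 stretch held 26 CG dinucleotides and 65.6% G or C, and the PAX8 stretch 11 and 61.6%, beside medians of 11 and 58.0% over the 35116 promoters of the table. GGGCGG occurred 2 times upstream of SIX2 and 0 times upstream of PAX8, and 42.6% of all such stretches hold it. Other motifs, of factors that act downstream of growth signals or in the kidney, were searched on both strands and found in neither stretch. They were GCGGGGGCG, bound by EGR1 and WT1 (4.72% of all stretches), GGAATG, bound by TEAD factors (11.9%), and TGACTCA, the AP-1 site (4.20%). TGACGTCA, the cyclic AMP response element (1.65%), and the CArG box of SRF (1.16%) complete this list. TATAAA, the general TATA box (10.7%), was searched too and was in neither. GGGCGG may overlap GCGGGGGCG. No match says only that these letters are not in this window.

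Further genes, namely paralogs, other kidney development genes and cell type markers, were taken from lists, each gene by its brightest probe set. Of 20 paralogs of the 8 factors measured with 1 symbol, 13 were above background on all 4 arrays. The brightest included EYA3, a relative of EYA1, with 3520.0 and 3483 after LPA, against 3506 and 3878 in untreated cells, and PAX6, an eye and brain paired box factor, with 1560 and 1548, against 1462 and 1362. Of the 16 paralogs tested, 0 passed the threshold, and the median log2 difference was 0.01. Without overlap, 3 lay above and 4 below, beside 14.4% and 13.3% of the brightest probe sets of all tested genes. GATA4, a heart and gonad factor, had the smallest unadjusted limma p, 0.065, with 159 and 147 after LPA, against 265 and 222 in untreated cells.

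Among 26 other transcription factors of kidney development, 17 were above background. They included FOXD1, the factor of the renal stroma, DACH1, a cofactor of EYA1 and the homeodomain proteins it binds, and CITED1, a marker of early nephron progenitors. Of 19 tested, 0 passed the threshold, 11 had a positive difference and the median was 0.01. The genes with the smallest p were IRX3, FOXD1 and FOXC2. IRX3, a homeodomain factor that patterns the tubule in frog embryos, read 797 and 752 after LPA, against 1305 and 1128 in untreated cells, a log2 difference of -0.65 ± 0.20 (SE, limma adjusted p = 0.999986). FOXD1 read 2175 and 2002 after LPA, against 2756 and 2988 in untreated cells, -0.46 ± 0.17 (SE, limma adjusted p = 0.999986). Neither overlapped between groups. Of the 19 tested, 1 lay above and 2 below without overlap, beside 14.4% and 13.3% of the brightest probe sets of all tested genes. The unadjusted limma p was 0.00934 for IRX3 and 0.0225 for FOXD1. FOXC2, a forkhead factor of the early kidney mesenchyme, went the other way, with 164 and 270.1 after LPA, against 114 and 173 in untreated cells. Its groups overlapped, with a log2 difference of 0.58 ± 0.39 (SE). DACH1 divided like WT1, with 2856 and 1726 on LPA replicates 1 and 2, against 2779 and 1752 on untreated replicates 1 and 2. CITED1 and CITED2 divided the other way, with replicate 2 the higher in both groups. CITED1 read 1193 and 1880 on LPA replicates 1 and 2, against 941 and 2020 on untreated replicates 1 and 2.

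Signals and matrix proteins that pass between the bud and the mesenchyme gave 11 of 19 genes above background. They included FRAS1 and FREM2, matrix proteins of the bud's basement membrane, BMP7, a growth factor for nephron progenitors, and ITGA8, the integrin of the mesenchyme. Of 12 tested, 0 passed the threshold and the median log2 difference was 0.04. ITGA8 had the smallest unadjusted limma p, 0.108, with 362 and 353 after LPA, against 500 and 460.2 in untreated cells. FREM2 read 505 and 448 after LPA, against 406 and 351 in untreated cells, and FRAS1 1339 and 1338, against 1629 and 1475. Of the 12 tested, only ITGA8, FREM2 and FRAS1 did not overlap, 1 above and 2 below. Among the brightest probe sets of all tested genes, 14.4% lay above without overlap and 13.3% below. BMP7 overlapped, with 1261 and 814 after LPA, against 948 and 959.9 in untreated cells.

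Of the markers of mature nephron segments, 4 of 16 genes were above background. These were PODXL and PTPRO of podocytes, LRP2 of the proximal tubule and AQP3 of the collecting duct. Of the loop and distal tubule markers, 0 of 3 were above background, and of adrenal cortex markers 0 of 4. Neuronal filament genes gave 3 of 4 (NEFL, NEFM and INA), epithelial genes 4 of 4 (CDH1, EPCAM, KRT8 and KRT18) and mesenchymal genes 2 of 2 (VIM and CDH2). Blood and endothelial markers gave 0 of 2 each. Of the tested markers, CDH1 lay above without overlap after LPA (a log2 difference of 0.47 ± 0.29, SE). VIM lay below (24351 and 19898, against 26882 and 30202), and neither passed the threshold. Over all tested genes, 14.4% of brightest probe sets lay above without overlap and 13.3% below. The other epithelial and mesenchymal markers overlapped, with log2 differences of 0.21 for CDH2, 0.09 for EPCAM, 0.19 for KRT8 and -0.03 for KRT18. The part of the markers in the values of the kidney factors was not tested.

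**Figure D4:**
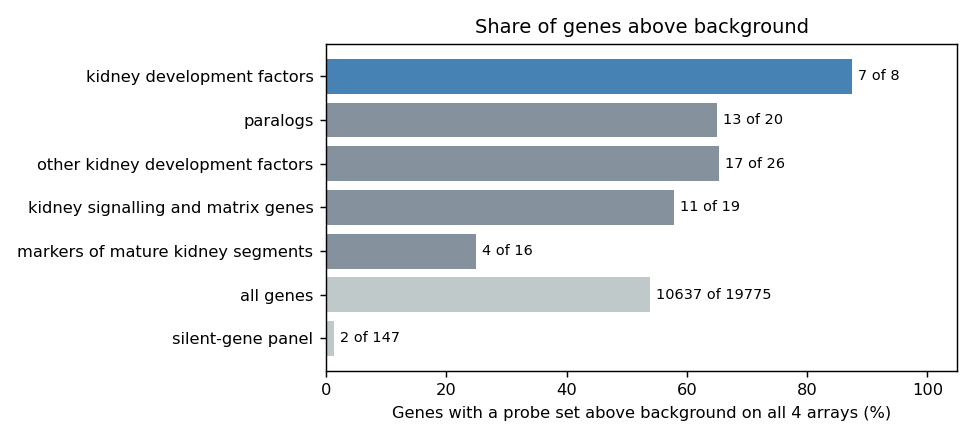
Percentage of genes with a probe set above background on all 4 arrays (bars from 0) for the 8 kidney development factors, related gene lists, all genes and the silent-gene panel, with counts beside the bars. The 8 factors stand at 7 of 8 and markers of mature kidney segments at 4 of 16, beside 53.8% of all genes.

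The genes whose pattern over the 4 arrays lay closest to that of the brightest probe set, SIX2 (206510_at), were FBXL18, CPSF7 and PDE9A. Their root mean square distances from it, each probe set taken relative to its own mean log2 value, were 0.0065, 0.0172 and 0.0203. Of 13062 candidates, 35 lay within 0.05 and 277 within 0.1. With 4 arrays this likeness is a description only.

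The arrays themselves were alike in level, with medians of 70.7 and 72.3 on the LPA arrays and 70.3 and 76.1 on the untreated arrays over all 54675 probe sets. LPA replicate 2 had the lowest maximum intensity, 62508, beside 93776 to 104012 on the others. It was also the array on which SIX2 and GATA3 read highest at their brightest probe sets. Rescaling the arrays by quantile normalization, cyclic loess or median centring gave log2 differences of 0.33, 0.32 and 0.34 for SIX2, beside 0.34 as deposited. For GATA3 it gave 0.074, 0.065 and 0.11, beside 0.11 as deposited. Without LPA replicate 2 the log2 difference of SIX2 was 0.17 and that of GATA3 -0.13.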

How the data were processed

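Gene expression of HEK293 cells was measured on 4 Affymetrix arrays, 2 after LPA and 2 untreated. Each deposited value is an intensity on a linear scale, made by the authors with MAS5 per the submitters' processing notes. No label or file header states its version or scaling target, and no detection calls were used. After trimming 2% at each end, the mean of every array was 500.1, so arrays had been scaled before deposit. Probe sets were named from the platform annotation: 41097 had 1 gene symbol, 1801 several and 11777 none. Only the first were used. Values were taken as log2(intensity + 1), which shrinks folds of dim probe sets a little. Their differences depended strongly on the number added. That of LHX1 was 1.19 with 1 added, 0.69 with 16 and 0.31 with 64. Probe sets at or above the 40th percentile of mean log2 intensity were compared with limma 3.58.1 in R 4.3.3 (lmFit and eBayes with an intensity trend, two-sided, no replicate term), with Benjamini-Hochberg adjustment over all 24658. An SE is limma's moderated value. Precision is limited by the number of arrays, with a median SE of 0.29. The 8 genes, the lists and the rule for named genes were chosen with earlier results of these data known. That rule took all 22 probe sets, and of each list the 4 brightest genes and the 3 of smallest p, of which some are given. DACH1, CITED1 and CITED2 for their division by replicate, and CDH1 and VIM as non-overlapping, were picked after their values were seen. Levels of different probe sets are not comparable with each other. The labels name no batch.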

Additional observations from a re-analysis of the deposited data

How the results depend on the processing

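Under the 15 alternatives, 0 member probe sets passed the threshold and the smallest adjusted p of a brightest probe set was 0.582 (SIX2). Counts over all probe sets moved from 0: a replicate block in limma gave 24, and with quantile normalization added 6; leaving out 1 array gave 0 to 1. What the number marks is not stated, and the deviations of same-numbered arrays from their group means correlated at 0.19 across probe sets. With the block, 0 of the 13 tested member probe sets passed, but the interval of SIX2 (206510_at) excluded 0 (0.05 to 0.63, unadjusted limma p 0.0231; 0.02 to 0.65 and 0.04 with quantile normalization added). An unadjusted limma p under 0.05 was otherwise reached by 1 dim probe set in each of 2 settings: 207924_x_at of PAX8 with no filter and 206229_x_at of PAX2 without untreated replicate 1. Of 120 recomputed differences of brightest probe sets, 7 changed sign, each on leaving out 1 array: PAX2 at 0.0048 (without untreated replicate 2), WT1 at 0.41 (without untreated replicate 1) and 0.30 (without LPA replicate 2), SALL1 at 0.17 and GATA3 at -0.014 (without untreated replicate 1), GATA3 at -0.13 (without LPA replicate 2) and the untested LHX1 at -0.41 (without untreated replicate 2). Part of the 120 could not change sign. A change of filter, the brightest probe set alone, no intensity trend and the replicate block by itself leave each difference as it was. Leaving out 1 array gave 0.17 to 0.51 for SIX2, -0.28 to -0.14 for PAX8, -0.50 to 0.0048 for PAX2 and -0.50 to 0.17 for SALL1. The same step gave -0.13 to 0.35 for GATA3, -0.40 to -0.03 for EYA1, -0.60 to 0.41 for WT1 and -0.41 to 2.79 for LHX1. The count of genes above background was 7 at the panel's 90th percentile, with olfactory receptors alone and by the brightest probe set alone. It was also 7 at the 40th percentile or median of all probe sets with 1 symbol, and 6 at the panel's 99th percentile. At that median PAX2 passed narrowly, reading 93.6 against 93.3 on LPA replicate 1 and 97.4 against 97.0 on LPA replicate 2.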
